A study of Homo sapiens with 6 samples.

Results

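Quinone and carbonyl reductases are enzymes that use reduced nicotinamide cofactors to detoxify quinones, ketones, aldehydes and enones. The group described here was chosen by gene symbol and holds 9 genes (NQO1, NQO2, CBR1, CBR3, CBR4, PTGR1, EPHX1, OSGIN1 and POR) of the 58884 rows in the expression matrix. EPHX1 is an epoxide hydrolase and OSGIN1 a growth regulator, so not every member is a reductase. Each symbol had 1 row, and all 9 members passed the filter on low values. RNA sequencing was done on KYSE450, a line of human esophageal squamous cell carcinoma (ESCC) cells with wild-type NRF2, and on KEAP1null-KYSE450, a monoclonal line derived from it by CRISPR-Cas9 editing of KEAP1. There were 3 libraries per line, and no treatment was given to either line. Since KEAP1null-KYSE450 is 1 clone, differences between the clone and its parent other than the loss of KEAP1 enter every comparison. Library numbers follow the order of the columns within a line and do not link a library of one line to a library of the other. Nothing states that the replicates were separate cultures, so the p-values measure only the spread between these samples.

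Values are normalized counts, which are reads per gene divided by 1 factor per library. Reads counted in genes, recovered from the normalized counts, ranged from 53027359 to 61543442 per library, and recovery was not accepted for library 2 of KYSE450 and library 3 of KEAP1null-KYSE450, whose factors are close to 1. In these terms 3 reads, taken as the floor of detection, corresponded to between 2.77 and 3.21 normalized counts, for counting error only. Every member lay far above this floor in every library. In bulk RNA, fewer cells of a type and less RNA per cell cannot be told apart.

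KEAP1 is the adaptor that brings the transcription factor NRF2 to a CUL3 ubiquitin ligase, and NRF2 that escapes it binds antioxidant response elements together with small MAF proteins. NQO1 is a classical gene of this response, and NQO1 and several P450 genes also respond to the aryl hydrocarbon receptor, AHR. Quinones that take up a single electron can cycle with oxygen, whereas reduction by NQO1 goes directly to the hydroquinone.

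The edited gene, KEAP1, had 5760, 5226 and 5146 normalized counts in KYSE450 and 5737, 4906 and 5317 in KEAP1null-KYSE450 cells. The lines overlapped, and the log2 fold change was -0.02 (SE 0.10, adjusted p = 0.90, limma with Benjamini-Hochberg adjustment). Counts per gene do not show whether a transcript carries an edit, so the KEAP1 level does not check the labels. NFE2L2, the gene of NRF2, had 11199, 11215 and 10616 normalized counts in KYSE450 and 8072, 7790 and 7980 in KEAP1null-KYSE450 cells. It was lower in each KEAP1null-KYSE450 library, with a log2 fold change of -0.47 (SE 0.09, adjusted p = 6.3e-04, limma with Benjamini-Hochberg adjustment).

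The epithelial origin of the line was checked with 7 markers, KRT5, KRT6A, TP63, EPCAM, CDH1, DSG3 and PKP1. EPCAM and CDH1 are not particular to squamous epithelium. The summed normalized counts of the 7 markers were 424618, 349521 and 310203 in KYSE450 and 721782, 595089 and 577923 in KEAP1null-KYSE450 cells. The sum follows KRT5, which had 250359, 199564 and 174377 in KYSE450 and 648677, 536519 and 519548 in KEAP1null-KYSE450 cells and was called higher. KRT6A (log2 fold change -4.70) and PKP1 (-2.95) were called lower, and TP63 (-0.60) and CDH1 (-0.82) were lower by the adjusted p alone. DSG3 (0.41) was higher by the adjusted p alone, and EPCAM (-0.02) was not called by either rule. The 3 simple epithelial markers, KRT8, KRT18 and KRT19, summed to 171821, 149942 and 158269 in KYSE450 and 297423, 257801 and 269517 in KEAP1null-KYSE450 cells, with KRT8 the most abundant, and the lines did not overlap. The 4 endothelial markers summed to between 48.0 and 74.8 normalized counts per library, with PECAM1 at 0 throughout and VWF the most abundant. CDH5, at 19.9 ± 9.11 in KYSE450 and 1.97 ± 1.03 in KEAP1null-KYSE450 cells (SD, n = 3 each), was called lower. Of the 6 fibroblast markers, COL1A1 had 839, 657 and 607 normalized counts in KYSE450 and 333, 401 and 431 in KEAP1null-KYSE450 cells. The other 5 averaged at most 11.5 in either line, and COL1A2 and DCN were at 0 in each KYSE450 library. LUM, at 11.5 ± 4.42 in KYSE450 (SD, n = 3), was at 0 in each KEAP1null-KYSE450 library.

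Of the 9 members, 6 were higher in KEAP1null-KYSE450 cells with an adjusted p under 0.05 and a log2 fold change of at least 1 (limma on log2 of the normalized count plus 1, with Benjamini-Hochberg adjustment), and 0 were lower. Over all 16701 genes tested, 12.2% were higher and 5.98% were lower by the same rule. The share of higher genes among those called was 67.2%, and it was 51.8% after quantile normalization. The 6 genes were PTGR1, OSGIN1, CBR3, EPHX1, CBR1 and NQO1, and their means were between 6.48-fold and 18.6-fold higher. With the adjusted p alone 8 members were higher, against 24.3% of all genes tested. The same 8 members had each KEAP1null-KYSE450 library above each KYSE450 library, an arrangement found in 28.4% of all genes tested. The members' median log2 fold change was 2.71, against 0.004 for all genes tested. The members were chosen with results of these data known, so these counts are a description of the group. The study's human ESCC NRF2 target gene list holds 5 of the members, NQO1, CBR1, EPHX1, OSGIN1 and POR, and of these POR was not called.

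**Figure D1:**
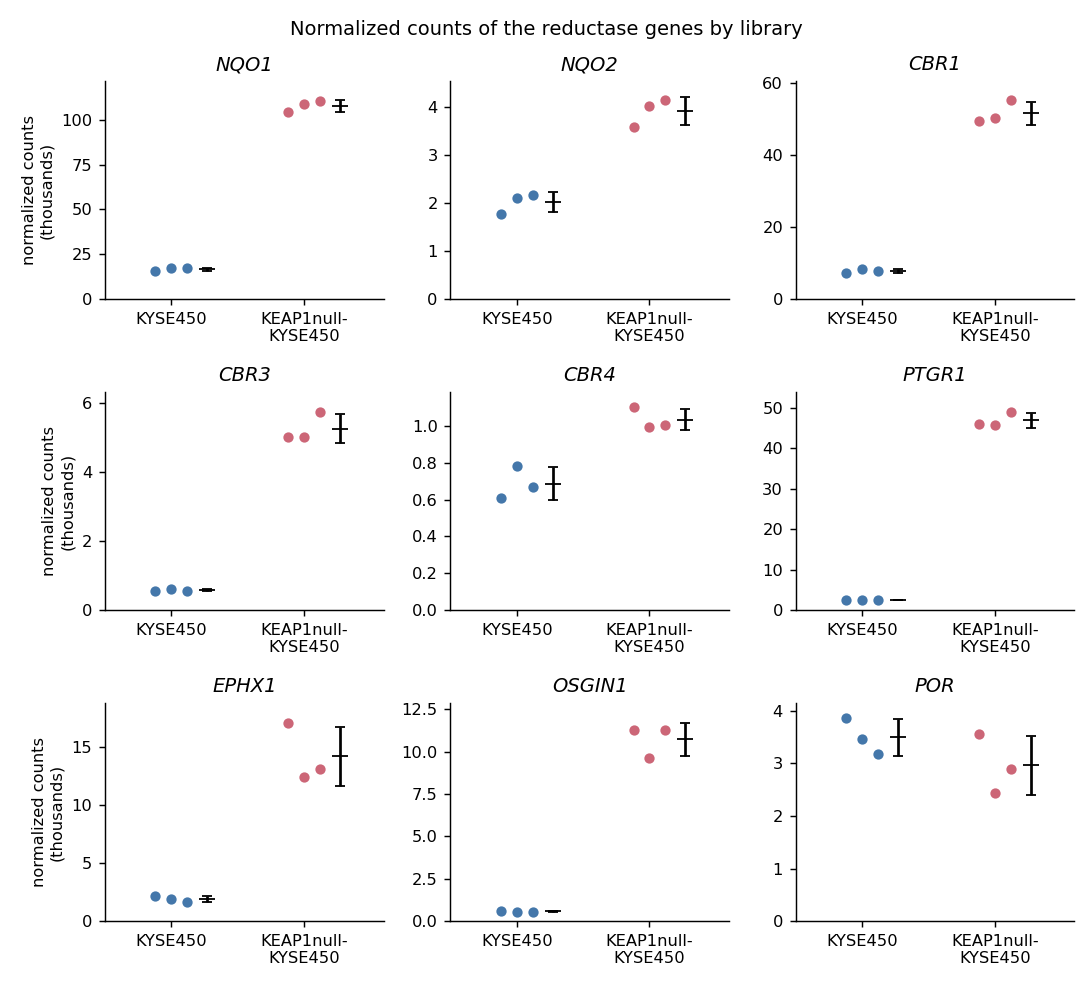
Normalized counts (in units of 1000, linear axis from 0) of each member in the 3 KYSE450 (blue) and 3 KEAP1null-KYSE450 (red) libraries, one point per library, with the mean and SD of each line as a black bar. In 8 panels all red points lie above all blue points, and in the panel of POR the lines overlap.

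**Figure D2:**
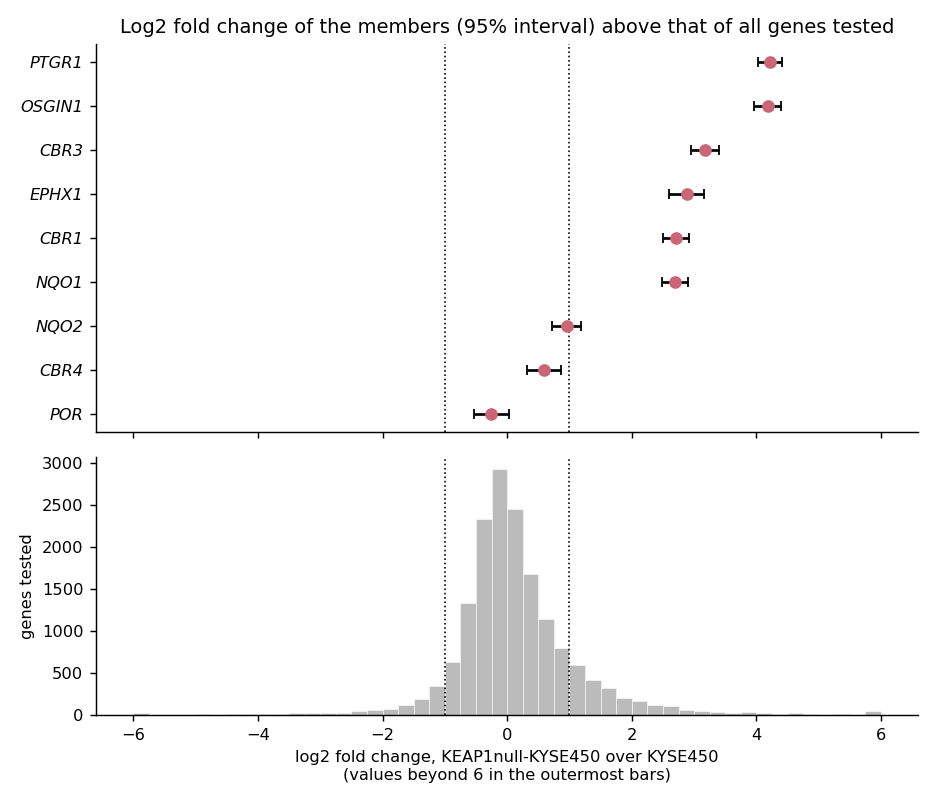
Log2 fold change of each member, KEAP1null-KYSE450 over KYSE450 (upper panel, points, with 95% confidence intervals from limma as bars), above the distribution of log2 fold changes of the 16701 genes tested (lower panel, number of genes per bar). The dotted lines mark log2 fold changes of -1 and 1, and 6 members lie wholly beyond the right line.

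NQO1, the quinone reductase also called DT-diaphorase, (ENSG00000181019), lies at chr16:69706996-69726668 on the minus strand of hg38. Promoter windows from RefSeq (GRCh38.p14) were searched for the core of the antioxidant response element, TGACNNNGC, on both strands, since the called members moved in one direction. The table had entries for 7 of the 9 members, at 9 start sites, and none for CBR3 and POR. In the windows of 250 bases before to 50 after the start, 2 of the 9 windows (1 of EPHX1 and that of CBR1) held the core, against 13.3% of all 35116 windows of this length. In the 1000 bases before the RefSeq start, read from hg38, 7 of the 9 windows held it, against 31.9% of 35116. This longer window was chosen after the data were seen, and 3 of the 9 windows belong to EPHX1. The members were chosen with results of these data known, so these shares are a description and enrichment was not tested. Among the 7 genes NQO2 had none. The NQO2 window, chr6:2998894-2999893, lies within the gene as listed here, from 2987987 to 3019755, and not before its listed start. A match is a description of letters and says nothing about binding. The stretches around the core for the called members with an entry, and for CBR4, which was not called, are shown with the core or its reverse complement in capitals, 5′ to 3′ on the strand of the gene.
NQO1, chr16:69726977-69727045, minus strand: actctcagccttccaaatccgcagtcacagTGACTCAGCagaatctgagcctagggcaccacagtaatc
CBR1, chr21:36069835-36069903, plus strand: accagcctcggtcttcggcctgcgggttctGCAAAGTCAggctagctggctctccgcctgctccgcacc
PTGR1, chr9:111600314-111600382, minus strand: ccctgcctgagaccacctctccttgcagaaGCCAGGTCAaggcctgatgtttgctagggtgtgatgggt
EPHX1, chr1:225823876-225823944, plus strand: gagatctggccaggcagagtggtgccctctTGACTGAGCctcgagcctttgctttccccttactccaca
OSGIN1, chr16:83952653-83952721, plus strand: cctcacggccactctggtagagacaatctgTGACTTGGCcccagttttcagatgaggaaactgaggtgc
CBR4, chr4:169010470-169010538, minus strand: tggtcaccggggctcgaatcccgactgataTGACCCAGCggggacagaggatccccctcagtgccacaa
The cores begin 455 bases before the RefSeq start for NQO1, 159 for CBR1 and 921 for PTGR1. They begin 305 bases before it for EPHX1 (1 of its 3 start sites), 557 for OSGIN1 and 253 for CBR4. The OSGIN1 window, chr16:83952240-83953239, lies within the gene as listed here, from 83931311 to 83966332, and not before its listed start. The same holds for each EPHX1 start site with a core. CBR1 held a second core 522 bases before its start, and another EPHX1 start site held cores 78 and 723 bases before it. The xenobiotic response element core GCGTG, which AHR binds, was found on either strand before the start in 1000 bases of each of the 9 windows, against 64.0% of all windows, and overlapped no antioxidant response element core.

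NQO1 had 15681, 17100 and 17093 normalized counts in KYSE450 and 104116, 108806 and 110351 in KEAP1null-KYSE450 cells. The lines did not overlap, and library 1 was the lowest of each line. The mean rose from 16625 ± 817 to 107758 ± 3247 (SD, n = 3 each), 6.48-fold, with a log2 fold change of 2.70 (95% confidence interval 2.49 to 2.91, adjusted p = 3.9e-10, limma with Benjamini-Hochberg adjustment). This change lay at percentile 97.6 of all genes tested. NQO2, its paralog, which uses dihydronicotinamide riboside in place of NAD(P)H, is listed as ENSG00000124588 on chromosome 6 from 2987987 to 3019755. It had 1780, 2095 and 2164 normalized counts in KYSE450 and 3576, 4010 and 4128 in KEAP1null-KYSE450 cells. The lowest KEAP1null-KYSE450 library lay above the highest KYSE450 library. The log2 fold change of NQO2 was 0.96 (95% confidence interval 0.73 to 1.19, adjusted p = 1.4e-05, limma with Benjamini-Hochberg adjustment), just short of the limit of 1. It passed that limit after quantile normalization (1.08), after rescaling without the 100 most abundant genes (1.10), without KYSE450 library 3 (1.01) and without KEAP1null-KYSE450 library 1 (1.02).

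CBR1, the main cytosolic carbonyl reductase, which acts on quinones, prostaglandins and anthracyclines, is listed as ENSG00000159228 on chromosome 21 from 36069941 to 36073166. Its normalized counts were 7273, 8398 and 7913 in KYSE450 and 49321, 50133 and 55205 in KEAP1null-KYSE450 cells. No library of one line reached the range of the other. The log2 fold change was 2.71 (95% confidence interval 2.50 to 2.92, adjusted p = 3.9e-10, limma with Benjamini-Hochberg adjustment), a 6.56-fold difference of the means. CBR3 (ENSG00000159231), a close paralog, starts 65138 bases from CBR1 on the same strand, from 36135079 to 36146562. It had 559, 620 and 558 normalized counts in KYSE450 and 5003, 5019 and 5750 in KEAP1null-KYSE450 cells. All KEAP1null-KYSE450 values were far above those of KYSE450, with library 3 the highest. CBR3 had a log2 fold change of 3.18 (SE 0.10, adjusted p = 1.6e-10, limma with Benjamini-Hochberg adjustment).

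CBR4, a mitochondrial reductase of the same short-chain dehydrogenase family, is listed as ENSG00000145439 at chr4:168863770-169010275, minus strand. It had 610, 781 and 669 normalized counts in KYSE450 and 1101, 993 and 1007 in KEAP1null-KYSE450 cells. The lines did not overlap. Its log2 fold change was 0.59 (95% confidence interval 0.33 to 0.86, adjusted p = 0.0017, limma with Benjamini-Hochberg adjustment), which was below the limit of 1, also under each of 18 other settings.

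The longest run of identical bases shared by the main transcripts of CBR1 and CBR3 was 49 bases, and it was 12 for NQO1 and NQO2 and 11 for CBR1 and CBR4. How reads that fit both CBR1 and CBR3 were counted is not given, and the sum of both genes was therefore also compared. It was 8440 ± 593 normalized counts in KYSE450 and 56810 ± 3614 in KEAP1null-KYSE450 cells (SD, n = 3 each), 6.73-fold higher. CBR1 overlaps SETD4 and CBR1-AS1 on the opposite strand, and CBR3 overlaps CBR3-AS1. Whether reads were counted by strand is not given, so those of a gene and of its antisense partner cannot be told apart. In CBR3, 57.4% of the windows of 100 bases in the main transcript also occur, on the opposite strand, in CBR3-AS1, and in CBR1 the share with CBR1-AS1 was 25.4%, with the same share in an unnamed gene on its own strand. In NQO1 the share with an unnamed gene on the opposite strand was 16.1%. CBR3-AS1 had 60.3 ± 10.1 and 127 ± 29.0 normalized counts and CBR1-AS1 had 13.8 ± 4.80 and 104 ± 23.7, in KYSE450 and KEAP1null-KYSE450 cells (SD, n = 3 each). Both were called higher, and both were at a small part of the level of CBR3 and CBR1.

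The balance within paralog pairs was compared per kb of exon within each library, which does not depend on the scaling of the library. The ratio of NQO1 to NQO2 was 7.19, 6.66 and 6.45 in KYSE450 and 23.8, 22.2 and 21.8 in KEAP1null-KYSE450 cells. The ratio of CBR1 to CBR4 was 24.9, 22.4 and 24.7 in KYSE450 and 93.4, 105 and 114 in KEAP1null-KYSE450 cells. The ratio of CBR1 to CBR3 went the other way, from 5.30, 5.52 and 5.77 in KYSE450 to 4.02, 4.07 and 3.91 in KEAP1null-KYSE450 cells. The lines did not overlap in any of the 3 pairs. The log2 differences were 1.74 for NQO1 to NQO2, 2.12 for CBR1 to CBR4 and -0.47 for CBR1 to CBR3 (exact permutation test, two-sided, p = 0.10 for each pair and 0.10 after adjustment over 3 pairs, the smallest p that 3 against 3 libraries can give).

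**Figure D3:**
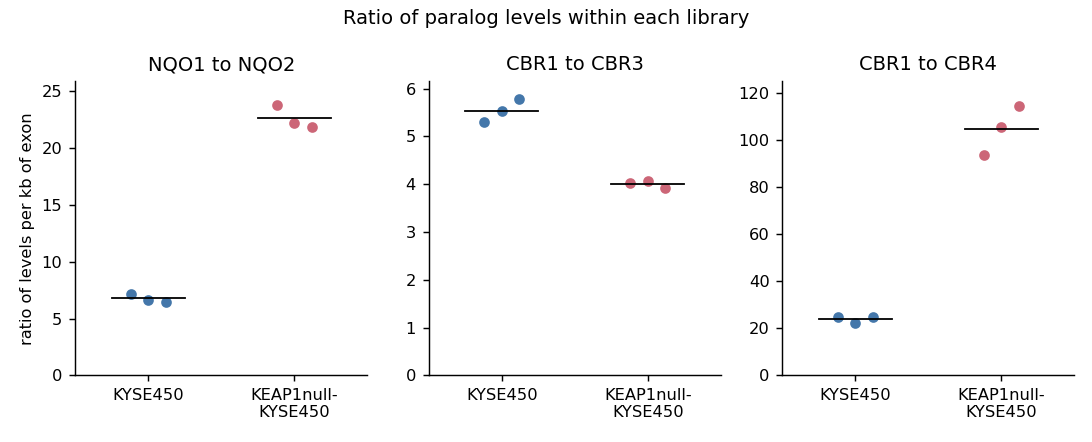
Ratio of paralog levels per kb of exon (linear axis from 0) in each of the 3 KYSE450 (blue) and 3 KEAP1null-KYSE450 (red) libraries, with the mean of each line as a black line. The ratios of NQO1 to NQO2 and of CBR1 to CBR4 are higher in KEAP1null-KYSE450 libraries, and the ratio of CBR1 to CBR3 is lower.

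PTGR1, which reduces the double bond of enones such as prostaglandin and leukotriene metabolites and reactive alkenals, is listed as ENSG00000106853 at chr9:111549722-111599893, minus strand. It had 2452, 2570 and 2510 normalized counts in KYSE450 and 45912, 45618 and 48906 in KEAP1null-KYSE450 cells. The libraries of each line lay close together and the lines were far apart. The log2 fold change was 4.22 (95% confidence interval 4.03 to 4.41, adjusted p = 1.7e-12, limma with Benjamini-Hochberg adjustment), an 18.6-fold difference of the means and percentile 99.1 of all genes tested. EPHX1, the microsomal epoxide hydrolase, is listed as ENSG00000143819 on chromosome 1 from 225810124 to 225845563. It had 2149, 1930 and 1676 normalized counts in KYSE450 and 17121, 12417 and 13136 in KEAP1null-KYSE450 cells. KEAP1null-KYSE450 library 1 was well above the other 2 of its line, with a coefficient of variation of 17.8%, and the lines did not overlap. The log2 fold change was 2.88 (95% confidence interval 2.60 to 3.17, adjusted p = 3.5e-09, limma with Benjamini-Hochberg adjustment).

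OSGIN1, a stress-induced growth regulator, is listed as ENSG00000140961 on chromosome 16 from 83931311 to 83966332. It had 614, 573 and 574 normalized counts in KYSE450 and 11268, 9599 and 11268 in KEAP1null-KYSE450 cells. Library 2 was the lowest of the KEAP1null-KYSE450 libraries, and the lines did not overlap. OSGIN1 had a log2 fold change of 4.18 (95% confidence interval 3.97 to 4.40, adjusted p = 5.9e-12, limma with Benjamini-Hochberg adjustment).

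POR, which passes electrons from NADPH to microsomal P450 enzymes and can reduce quinones by a single electron, is listed as ENSG00000127948 on chromosome 7 from 75899200 to 75986855. It had 3867, 3452 and 3172 normalized counts in KYSE450 and 3555, 2433 and 2897 in KEAP1null-KYSE450 cells. KEAP1null-KYSE450 library 1 lay within the range of KYSE450 and the other 2 below it. The log2 fold change was -0.25 (95% confidence interval -0.54 to 0.04, adjusted p = 0.13, limma with Benjamini-Hochberg adjustment). Without KEAP1null-KYSE450 library 1 it was -0.39 with an adjusted p of 0.021 from limma, and over 18 other settings the adjusted p lay between 0.021 and 0.51.

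Levels of different members were compared per kb of exon. In KYSE450 cells NQO1 had the highest level, 5596 ± 275 normalized counts per kb, followed by CBR1 with 3209 ± 230 (SD, n = 3). NQO2 (830 ± 84.5), EPHX1 (775 ± 95.5) and PTGR1 (666 ± 15.7) came next, and the libraries of NQO2 and EPHX1, and of EPHX1 and PTGR1, overlapped. CBR3 (580 ± 35.1) and POR (562 ± 56.2) overlapped as well, and CBR4 (134 ± 17.1) and OSGIN1 (106 ± 4.18) were the lowest. In KEAP1null-KYSE450 cells the order was NQO1 (36270 ± 1093), CBR1 (21042 ± 1302), PTGR1 (12417 ± 483), EPHX1 (5745 ± 1024), CBR3 (5268 ± 428), OSGIN1 (1927 ± 173), NQO2 (1610 ± 120), POR (476 ± 90.6) and CBR4 (202 ± 11.5). Of these neighbours only EPHX1 and CBR3 overlapped. PTGR1 went from 5.35% to 14.6% of the summed level of the 9 members, NQO1 from 44.9% to 42.7% and POR from 4.51% to 0.560%. With the length of the main transcript, a scale chosen after the data were seen, NQO1 and CBR1 overlapped in both lines, CBR4 in place of OSGIN1 was the lowest in KYSE450 without overlap, and OSGIN1 overlapped CBR3 in KEAP1null-KYSE450 cells. On that scale PTGR1 went from 7.76% to 21.0% of the sum and POR from 7.06% to 0.869%, so ranks and shares depend on the length used.

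**Figure D4:**
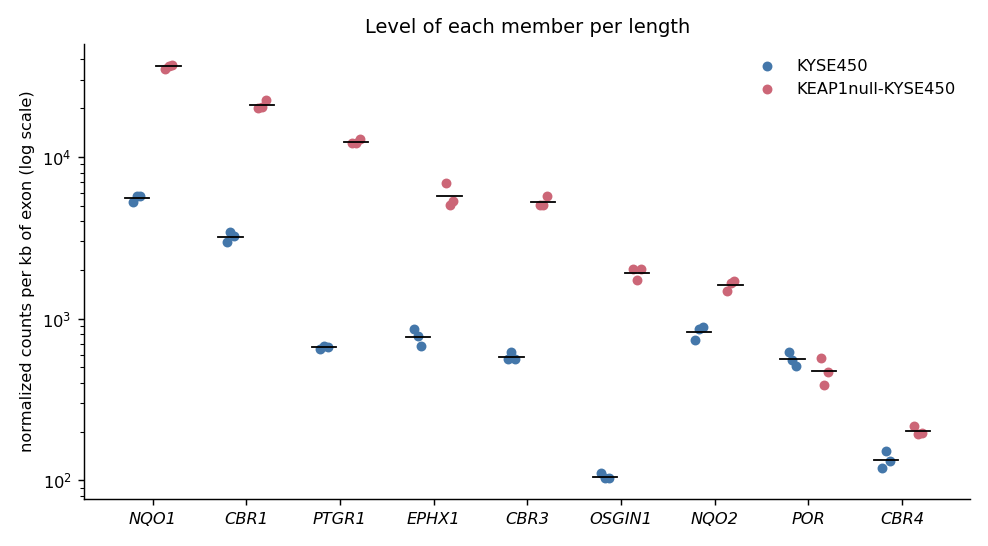
Normalized counts per kb of exon (log scale) of each member in the 3 KYSE450 (blue) and 3 KEAP1null-KYSE450 (red) libraries, with the mean of each line as a black line, ordered by the mean in KEAP1null-KYSE450 cells. On this scale OSGIN1 is the lowest member in KYSE450 and above NQO2, POR and CBR4 in KEAP1null-KYSE450 cells, and the points of POR overlap between the lines.

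Genes with the most similar pattern were taken as the 3 at the smallest Euclidean distance of log2 values, centred on each gene's mean over the 6 libraries, among the 7758 genes averaging 1000 or more. The nearest gene to NQO1 was CBR1 (distance 0.11), followed by SNCG (0.15) and BASP1 (0.23), and the nearest to CBR1 were NQO1, SNCG (0.18) and CASTOR3 (0.23). OSGIN1 and PTGR1 were each other's nearest gene (0.21), followed by GCLC, the catalytic subunit of glutamate cysteine ligase, at 0.33 from OSGIN1 and 0.43 from PTGR1. The third genes were ADAM23 (0.53) for OSGIN1 and NMRAL2P (0.52) for PTGR1. CBR3 was nearest to GPX2 (0.14), ARRDC4 (0.28) and HPGD (0.31). EPHX1 had its nearest genes farther away, with ASPH at 0.38, CASTOR3 at 0.47 and MEGF9 at 0.48. With 3 libraries in each of 2 lines, a small distance mainly means a similar log2 fold change, such as 2.70 for NQO1 and 2.71 for CBR1. It is no separate sign of shared regulation.

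Within 500 kb of the members' starts there were 82 other genes tested, of which 10 (12.2%) were called higher and 7 lower, against 12.2% and 5.98% of all genes tested. The nearest start on each side of a member was also looked up among tested genes with a mean of 100 or more, whether or not the genes overlap. For NQO1 it was NQO1-DT, listed in the matrix as AC092115.3, which starts 100 bases from it on the opposite strand and rose from 79.0 ± 19.0 to 207 ± 30.6 normalized counts (SD, n = 3 each). For CBR1, RUNX1 fell with a log2 fold change of -1.39 and SETD4 had one of 0.60. DOP1B, after CBR3, had a log2 fold change of -0.24. For CBR4 the nearest starts were those of PALLD (1.31), which overlaps CBR4 on the opposite strand, and SH3RF1 (-1.10). For OSGIN1 they were those of MLYCD (0.11), which overlaps it, and NECAB2 (1.75). Neither neighbour was called for NQO2 (LINC01011 -0.05, RIPK1 -0.30), PTGR1 (ZNF483 -0.81, DNAJC25 -0.07), EPHX1 (SRP9 0.39, TMEM63A -0.56) or POR (RHBDD2 0.14, TMEM120A -0.55), and NFAT5 on the other side of NQO1 had a log2 fold change of 0.04.

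Of 31 further reductases of quinones, enones and carbonyls in the matrix, 29 were tested. Of these, 2 were called higher and 1 lower, with a median log2 fold change of 0.09. TP53I3, a quinone oxidoreductase induced by p53, rose from 558 ± 69.1 to 1778 ± 31.9 normalized counts and DHRS13 fell from 1222 ± 210 to 483 ± 146 (SD, n = 3 each). PTGR2, the paralog of PTGR1, had a log2 fold change of 0.97 (388 ± 20.1 and 759 ± 54.9 normalized counts), just short of the limit, and was named after its values were seen. AIFM2, a ubiquinone reductase of the plasma membrane, had 2290 ± 193 and 2859 ± 251 normalized counts and a log2 fold change of 0.32. Called higher were 6.90% of this list, against 12.2% of all genes tested, and with the adjusted p alone 11 of the 29 were higher and 7 lower, against 24.3% and 25.5%. Called lower were 3.45%, against 5.98%. Among the 12341 genes averaging 100 or more, 875 were called higher and 683 lower, and the list was not counted again at that limit.

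Around POR, 25 of 28 genes of microsomal and other electron transfer were tested, with a median log2 fold change of -0.34. Of these, 3 were called higher and 2 lower, against 12.2% and 5.98% of all genes tested. The list is mixed, since it holds genes that are not microsomal, such as the mitochondrial FDX1 and FDXR. HMOX1, heme oxygenase, rose from 220 ± 23.3 to 555 ± 61.6 normalized counts and CYP4V2 from 70.9 ± 13.9 to 179 ± 33.6 (SD, n = 3 each). CYP2J2 was also called higher, at a low level (14.9 ± 4.81 and 88.0 ± 20.6), with a log2 fold change of 2.50. CYP2S1 fell from 4911 ± 1037 to 928 ± 276 and CYP1B1, a P450 induced through AHR, from 9395 ± 423 to 4674 ± 809, with log2 fold changes of -2.42 and -1.02. CYP1A1, another AHR-induced P450, had 302 ± 76.7 and 178 ± 32.3 normalized counts and a log2 fold change of -0.74, and CYB5R3, a reductase of cytochrome b5, had one of -0.50, both below the limit of 1 in size. With the adjusted p alone, 12 of the 25 were lower and 3 higher, against 25.5% and 24.3% of all genes tested.

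The matrix held 19 enzymes of prostaglandin and leukotriene metabolism and epoxide hydrolysis around PTGR1 and EPHX1, of which 12 were tested. Of these 12, 2 (16.7%) were called higher and 3 (25.0%) lower, against 12.2% and 5.98% of all genes tested. HPGD, which oxidizes prostaglandins in the step before PTGR1, rose from 503 ± 87.9 to 4254 ± 453 normalized counts (SD, n = 3 each). PTGS2, the inducible cyclooxygenase, fell from 1435 ± 114 to 62.7 ± 13.1, a log2 fold change of -4.51 (adjusted p = 8.2e-10, limma with Benjamini-Hochberg adjustment), and PTGES, which makes prostaglandin E2, fell from 834 ± 211 to 207 ± 19.6. LTA4H, a leukotriene A4 hydrolase, had 10777 ± 746 and 10513 ± 357 normalized counts and a log2 fold change of -0.03. TBXAS1, thromboxane synthase, was also called higher, at a low level (18.3 ± 3.14 and 69.0 ± 11.9), so enzymes of synthesis were called in both directions. ALOX12 was also called lower, at a low level (63.9 ± 13.4 and 27.9 ± 7.46).

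Of 15 regulators of NRF2 and AHR, 14 were tested, and 2 (14.3%) were called higher and 2 lower, against 12.2% and 5.98% of all genes tested. SQSTM1, which binds KEAP1, rose from 16277 ± 1196 to 53243 ± 3751 normalized counts, and MAFG, a small MAF partner of NRF2, from 2435 ± 217 to 5483 ± 624 (SD, n = 3 each). NFE2L1 fell from 12957 ± 3198 to 5481 ± 1332 and MAFF from 368 ± 60.2 to 154 ± 17.8. AHR itself had 3095 ± 97.8 and 3711 ± 177 normalized counts, and its log2 fold change was 0.26 (adjusted p = 0.029, limma with Benjamini-Hochberg adjustment), below the limit of 1.

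**Figure D5:**
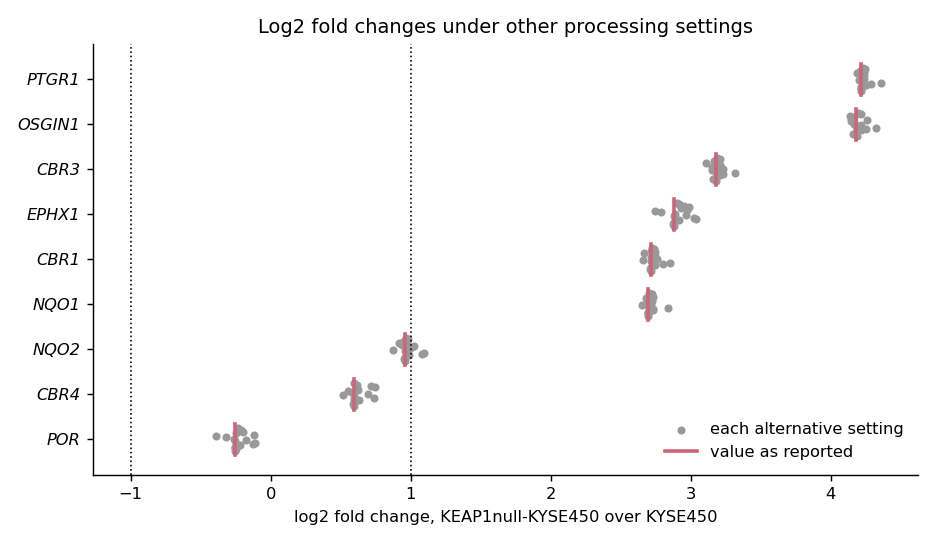
Log2 fold change of each member, KEAP1null-KYSE450 over KYSE450, as reported (red bar) and under each of 18 other processing settings (grey points). The dotted lines mark log2 fold changes of -1 and 1, and NQO2 is the member whose points fall on both sides of a line.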

How the data were processed

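RNA of KYSE450 and KEAP1null-KYSE450 cells was sequenced, with 3 libraries each. By the study's methods and the submitters' processing notes (FastQC 0.11.5, cutadapt 1.12, STAR 2.6.90c, featureCounts 1.5.1), reads were aligned to hg38, counted per gene and normalized. The authors deposited a signal per gene, normalized counts, and name DESeq2 for their own tests; limma was used here because the values are scaled. Within a tolerance of 0.001, 100% of the values above 0 were whole multiples of 1 read per library. Differences were tested with limma 3.58.1 (R 4.3.3; lmFit, eBayes with trend) on log2(normalized count + 1), a scale that understates changes of low genes, over the 16701 genes averaging 10 or more, with Benjamini-Hochberg adjustment. A gene was called if its adjusted p was below 0.05 and its log2 fold change was 1 or more in size. Paralog ratios were tested by exact permutation (scipy 1.17.1). edgeR 4.0.16 and DESeq2 1.42.0 were alternatives on recovered reads. On the 4 libraries for which recovery was accepted they called 2698 and 2500 genes, and on all 6, an alternative chosen after the data were seen, 3023 and 3031. The fits were tested on simulated data. Positions and lengths came from gencode v44, whereas the study's methods name a RefSeq annotation and the matrix carries Ensembl identifiers. The members and lists were chosen with earlier results of these data known. Genes named were the members, KEAP1, NFE2L2, and up to 4 called genes per list and direction averaging 100 or more in the line where they were higher. AHR, CYP1A1, CYP1B1, AIFM2, CYB5R3 and LTA4H were also named. PTGR2, CYP2J2, TBXAS1 and ALOX12 were named after their values were seen. The rest were the nearest tested genes averaging 100 or more, the genes of most similar pattern, cell-type markers and genes that overlap a member.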

Additional observations from a re-analysis of the deposited data

How the results depend on the processing

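NQO1, CBR1, CBR3, PTGR1, EPHX1 and OSGIN1 were called higher under each of 18 other settings, and CBR4 and POR were not called under any of them. NQO2 was called after quantile normalization (log2 fold change 1.08) and after rescaling without the 100 most abundant genes (1.10). The last setting moved the median of all genes by 0.139, and relative to that shift NQO2 was at 0.96. In fits that left out 1 library each, NQO2 lay between 0.87 and 1.02, and the cause was not tested. With the adjusted p alone 8 members were higher, and POR was lower by it without KEAP1null-KYSE450 library 1 (-0.39, adjusted p = 0.021, limma). The count of all genes called higher, 2045, was 875 with a mean of at least 100, where fewer genes were tested, 626 in a test against a log2 fold change of 1 and 4060 with the adjusted p alone. The count called lower, 999, was 395 and 4251 in these last settings. Each paralog ratio kept its direction in 6 fits without 1 library. No paired analysis was possible because the columns carry no replicate number. The count tests on 6 libraries, the scale by main transcript and the windows of 1000 bases before the start were chosen after the data were seen. Summing rows of a symbol was not applicable, since each member has 1 row. Strand was not stated for the counting, which limits NQO1, CBR1 and CBR3 and the genes on their opposite strands.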
